A study of Rattus norvegicus with 4 samples.

Results

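The Notch genes described here were the receptors Notch1, Notch2 and Notch3, the ligands Dll1, Dll3 and Jag1, and the transcription factors Hes1, Hes5, Hes6 and Hey1. They were taken by symbol from the first column of the count tables, and all 10 were found among 16881 gene symbols. The cells were wild-type rat neural stem/progenitor cells grown on a bare PUCL platform or on the PUCL@CNT1 platform. The series title calls the PUCL@CNT scaffolds electroconductive, and the labels do not spell PUCL out. On each platform, 1 library came from cells kept 24 h in a medium that maintains stemness (knockout DMEM/F12 with StemPro Neural Supplement), called maintenance medium here. A second library came from cells that then spent a further 1.5 days in differentiation medium (B-27 Plus Neuronal Culture medium). Medium and time in culture therefore changed together and cannot be told apart. There were 4 libraries and 1 library per combination, so no group has replicates and no value below carries a spread between cultures.

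Notch receptors are single-pass membrane proteins that are activated when a neighbouring cell presents a ligand of the Delta or Jagged family. Contact leads to cleavage of the receptor by an ADAM protease and then by gamma-secretase, and the released intracellular domain joins the DNA-binding protein Rbpj and Mastermind-like coactivators to switch on target genes. In neural progenitors the best-known targets are Hes1 and Hes5, repressors that hold back proneural factors and thereby neuronal differentiation.

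Hes1 rose with the switch to differentiation medium, and it was the single member that passed the test over both platforms. That call missed the threshold in 5 of 12 alternative analyses, DESeq2 among them. The ligands Jag1 and Dll3 were higher in the differentiation library than in the maintenance library on each platform. Notch1 and Notch2 differed by less than 2-fold in every pair of libraries. Hes6 was slightly lower after the switch on both platforms, and Hes5 and Hey1 were at or near 0 in all 4 libraries. No member passed the test for a difference between platforms, although Dll3 had fewer counts on PUCL@CNT1 than on bare PUCL in each medium.

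The libraries held between 6035848 and 6855984 counts, and between 9584 and 9842 symbols had a count. At these depths the limit that a count of 0 allows, 3 counts in a library, lay between 0.451 and 0.480 TMM-scaled CPM (reads per 1e+06 library reads, with edgeR's TMM correction for composition). The labelled cell type was checked against its markers. Of 12 stem and progenitor markers 11 were in the tables, and 9 or 10 had counts in each library. Msi1 was at 0 throughout. Their summed level was 7063 CPM (PUCL) and 7322 CPM (PUCL@CNT1) before the switch, and 9008 and 11227 CPM after it. Vim alone made up most of it, at 4314 and 4795 CPM before and 4814 and 7634 CPM after. Sox2, Pax6 and Prom1 were lower after the switch on PUCL@CNT1 and higher on PUCL, and Fut4 fell to 0 on PUCL. The other detected markers were higher on both platforms. This list contains Fabp7, Nes and Sox9, which are also Notch targets below. Among markers of other cells, 7 of 9 microglial genes were at 0 throughout, including Cx3cr1, P2ry12 and Tmem119. So were 5 of 12 endothelial genes, including Pecam1, Cdh5 and Tek, while Kdr, Flt1 and Egfl7 reached 95, 125 and 93 counts in their highest library. Mural and fibroblast markers had counts throughout, led by Acta2 with 2279 to 6920 counts, and all 10 oligodendrocyte-lineage genes were detected in every library. The sums of these lists stand beside the genes they bear on.

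**Figure D1:**
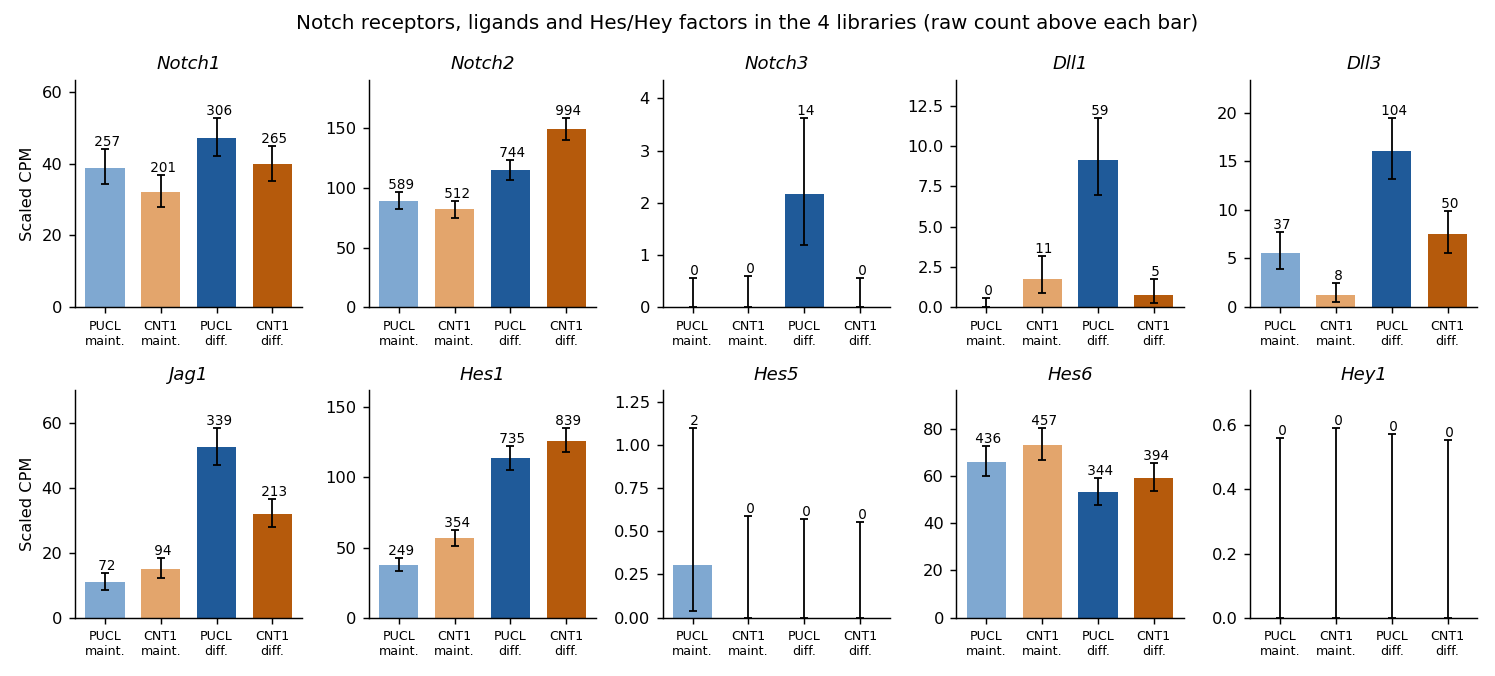
TMM-scaled CPM of the 10 Notch genes in each of the 4 libraries, with 1 bar per library, its raw count above it and whiskers for the exact 95% interval of counting error; axes differ between genes. Hes1 and Jag1 lie higher in both differentiation libraries than in both maintenance libraries, Dll1 and Notch3 stand above their other values in 1 library, and Hey1 has no counts.

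Promoter sequence is shown first for the 3 members that carry the core motif bound by Rbpj, TGGGAA, so that the letters behind the match counts can be seen. The windows are the 250 bases before the start site that RefSeq's promoter table uses on the GRCr8 assembly. For Dll3 that window lies wholly inside the annotated gene, for Hes6 almost wholly and for Hes5 at its end, because the annotation begins further upstream. This is not rn6, the build that the submitters' processing notes name, so these coordinates belong to the reference only. Of the 10 members 9 matched an entry (all but Hey1). Both strands were searched, and capitals mark TGGGAA or, where the match is on the other strand, its complement TTCCCA. The sequences are given 5′ to 3′ along the gene's strand. Hes1 lies on the minus strand at chr11:84213046-84213295, Dll1 on the minus strand at chr1:64993275-64993524, and Hes5 on the plus strand at chr5:170804327-170804510. The Hes5 window is printed for 184 bases, up to the first annotated base of the gene.
Hes1: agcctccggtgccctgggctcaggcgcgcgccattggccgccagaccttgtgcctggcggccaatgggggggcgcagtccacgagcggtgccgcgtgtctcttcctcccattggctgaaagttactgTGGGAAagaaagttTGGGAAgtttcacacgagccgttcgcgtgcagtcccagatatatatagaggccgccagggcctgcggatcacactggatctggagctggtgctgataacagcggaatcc
Dll1: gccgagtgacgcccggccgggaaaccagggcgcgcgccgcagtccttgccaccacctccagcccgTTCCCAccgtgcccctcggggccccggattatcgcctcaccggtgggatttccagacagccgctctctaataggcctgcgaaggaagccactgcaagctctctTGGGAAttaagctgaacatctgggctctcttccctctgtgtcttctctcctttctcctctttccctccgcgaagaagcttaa
Hes5: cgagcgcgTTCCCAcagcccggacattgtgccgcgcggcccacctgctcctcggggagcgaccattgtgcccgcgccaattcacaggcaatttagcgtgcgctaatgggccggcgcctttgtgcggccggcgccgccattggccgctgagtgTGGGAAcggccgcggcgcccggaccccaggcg
Hes1 held 2 matches on its own strand, at positions -123 to -118 and -109 to -104 from the start. Dll1 also held 2, at -185 to -180 on the opposite strand and -82 to -77 on its own. Hes5 held 2, at -242 to -237 on the opposite strand and -98 to -93 on its own. The other 6 matched members held none. Over 33469 promoter windows of the same length, 22.1% held at least 1 TGGGAA and 2.71% held 2 or more. The N-box motif CACNAG, a site for Hes proteins, occurred 4 times in each of the Hes1 and Notch1 windows, 1 time in each of the Notch3 and Hes6 windows and in none of the other 5. It was present at least once in 37.2% and at least 2 times in 8.02% of all windows. The 3 motifs cannot match the same 6 letters. The E-box CACGTG was in no member's window and in 5.59% of all windows. A match describes these letters and is not evidence of binding.

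The switch of medium was the first comparison. The design text of the series asks how expression differs before and after the change to differentiation conditions. It was tested with edgeR's quasi-likelihood F test in a model with medium and platform as additive terms over all 4 libraries. That model leaves 1 residual degree of freedom and takes the departure from additivity as its error, moderated across the 10516 genes that reached 10 counts in any library. Of these genes, 1.76% were higher and 1.02% were lower in differentiation medium at a Benjamini-Hochberg adjusted p of 0.05. Of the 10 members 8 entered the test. Hes1 was the 1 member that was higher, and 0 were lower. At an unadjusted p of 0.05, 3 members were higher and 0 lower, against 6.22% and 5.88% of all genes tested. DESeq2 called 0 of the 7 members to which it gave an adjusted p, against 1.28% higher and 0.594% lower among its genes. At an unadjusted p of 0.05 it had 2 members higher and 0 lower, against 5.81% and 4.35%.

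The same switch was also described within each platform by the ratio of the 2 scaled counts with its exact 95% Clopper-Pearson interval, which covers counting error only. A gene was counted as higher or lower by size where the ratio was 2-fold or more and the interval's nearer end exceeded 1.5-fold. This rule has no p-value, since it compares 2 libraries and not 2 conditions. On PUCL, 5 of the 8 tested members were higher by size and 0 were lower, against 16.0% higher and 15.2% lower among all genes tested. Of these, Notch3 met the filter of 10 counts through the PUCL differentiation library alone. It could therefore not be lower on PUCL, and its call there is no separate result. On PUCL@CNT1, 3 of the 8 were higher and 0 lower, against 16.5% and 14.5%. Dll3, Jag1 and Hes1 were higher on both platforms, against 4.35% of all genes, and no member was lower on both, against 3.52%. The median log2 ratio of the 8 members, Notch3 included, was 1.55 on PUCL and 0.59 on PUCL@CNT1, against 0.03 and -0.02 over all genes tested.

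Counts set how far these ratios can be read. Among genes with a mean under 100 counts, 50.5% passed the size rule in one direction or the other on PUCL and 48.7% on PUCL@CNT1, against 17.9% and 18.6% of genes with a mean of 100 or more. Notch3, Dll1 and Dll3 are in the low class, with means of 3.5, 18.75 and 49.75 counts. All 3 passed on PUCL and 1 on PUCL@CNT1. Of the 5 members in the high class (Notch1, Notch2, Jag1, Hes1 and Hes6), 2 passed on each platform.

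**Figure D2:**
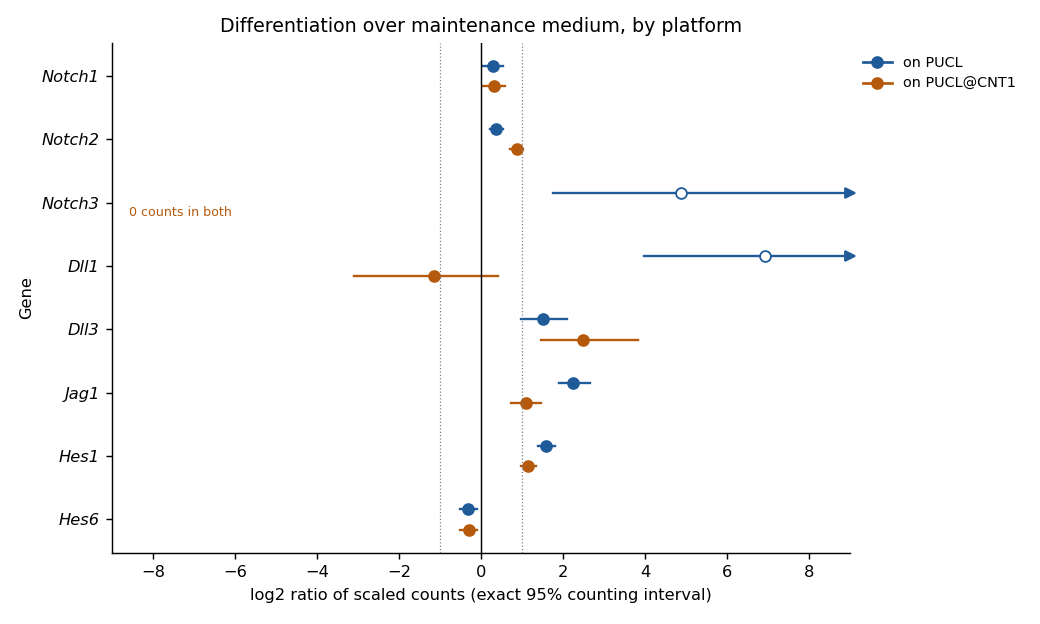
Log2 ratio of differentiation over maintenance medium for each Notch gene on bare PUCL and on PUCL@CNT1, with exact 95% intervals of counting error; dotted lines mark 2-fold, and open points with arrows mark ratios without an upper limit because the maintenance library is at 0. Jag1, Dll3 and Hes1 lie above 0 on both platforms, Hes6 lies slightly below 0 on both, and Dll1 lies far above 0 on PUCL and below 0 on PUCL@CNT1.

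Among the ligands, Jag1, a Jagged-family activator of Notch receptors, had 72 and 94 counts before the switch (PUCL, then PUCL@CNT1 here and below) and 339 and 213 after it. In scaled units these were 10.9, 15.0, 52.4 and 32.0 CPM. Both differentiation libraries were above both maintenance libraries. How many of all genes tested have their libraries in such an order was not counted. Here and for the genes below, it describes the values only. The ratio was 4.78-fold on PUCL (interval 3.72 to 6.28) and 2.12-fold on PUCL@CNT1 (1.66 to 2.74). On PUCL@CNT1 the log2 ratio was 1.09, and it fell to 0.99, short of 2-fold, when libraries were scaled by total counts. Over both platforms the fitted log2 change was 1.67 with a standard error of 0.61, which did not pass the threshold (edgeR, Benjamini-Hochberg adjusted p = 0.138).

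Dll3 is an atypical Delta ligand that sits mainly inside the cell and does not activate receptors on neighbouring cells. It had 37 and 8 counts before the switch and 104 and 50 after it. Each platform had more Dll3 counts after the switch, but the PUCL maintenance library and the PUCL@CNT1 differentiation library were close, at 5.61 and 7.52 CPM. The ratio was 2.84-fold on PUCL (1.95 to 4.29) and 5.58-fold on PUCL@CNT1 (2.76 to 14.3). The fitted log2 change of 2.01 had a standard error of 1.66 and did not pass (adjusted p = 0.806).

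Dll1, a Delta ligand that activates Notch on adjacent cells, had 0, 11, 59 and 5 counts, with PUCL before PUCL@CNT1 and the maintenance pair before the differentiation pair. A single library, PUCL in differentiation medium, was high. Dll1 was 20.1-fold higher after the switch on PUCL, taking 3 counts for the library at 0 and the other count as measured. The exact interval of that ratio, which includes counting error in both libraries, begins at 15.8-fold. On PUCL@CNT1 the log2 ratio was -1.15, with an interval from -3.10 to 0.42 that includes no difference. The fitted change turned from 2.87 to -0.22 when the PUCL differentiation library and the platform term were both left out, and Dll1 did not pass the test (edgeR adjusted p = 0.953).

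Of the receptors, Notch1, the main Notch receptor of the developing nervous system, had 257 and 201 counts before the switch and 306 and 265 after it. These were 39.0, 32.2, 47.3 and 39.9 CPM, and the groups overlapped across platforms. The log2 ratio was 0.28 on PUCL (0.04 to 0.53) and 0.31 on PUCL@CNT1 (0.04 to 0.58), on each platform a smaller ratio than that of Notch2. The fitted log2 change was 0.30 with a standard error of 0.47 (edgeR adjusted p = 0.951).

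Notch2, a receptor also found in radial glia and glial progenitors, had 589 and 512 counts before the switch and 744 and 994 after it. In scaled units the values were 89.3, 82.0, 115 and 150 CPM, so both differentiation libraries lay above both maintenance libraries. The log2 ratio was 0.37 on PUCL (0.21 to 0.52) and 0.87 on PUCL@CNT1 (0.71 to 1.02), both under 2-fold. The fitted log2 change was 0.62 with a standard error of 0.31, which did not pass (edgeR adjusted p = 0.412). The log2 ratio on PUCL@CNT1 was larger by 0.50 (0.28 to 0.72, counting error only), a difference that could not be tested.

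Notch3, a receptor best known from vascular mural cells and also present in neural progenitors, had 14 counts in the PUCL differentiation library and 0 in the other 3. By the same reckoning it was 4.76-fold higher after the switch on PUCL, where the exact interval begins at 3.38-fold, and no ratio can be given on PUCL@CNT1. The summed level of the 13 mural cell and fibroblast markers was 1363, 972, 673 and 622 CPM in the same order of libraries as for Dll1. By that sum the library with Notch3 counts was not the highest. Acta2 and Tagln carried most of the sum in each library. The other detected markers had other orders, such as Kcnj8 with 25, 105, 0 and 6 counts and Col1a1 with 84, 1, 7 and 88. Rgs5, Abcc9, Dcn and Lum were at 0 in all 4 libraries. The part of such cells in the Notch3 counts was not tested. In bulk RNA, fewer cells of a type and less RNA per cell cannot be told apart.

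Among the Hes and Hey factors, Hes1, the repressor that oscillates in progenitors and holds back proneural factors, had 249 and 354 counts before the switch (PUCL, then PUCL@CNT1) and 735 and 839 after it. These were 37.8, 56.7, 114 and 126 CPM. Each differentiation library exceeded each maintenance library. The ratio was 3.01-fold on PUCL (2.61 to 3.49), and on PUCL@CNT1 the log2 ratio was 1.15 (0.97 to 1.34). Over both platforms Hes1 rose by a fitted log2 of 1.37 with a standard error of 0.35 (edgeR's quasi-likelihood test, Benjamini-Hochberg adjusted p = 0.0104).

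The Hes1 call held in 7 of 12 alternative analyses and missed the threshold in 5, with the fitted log2 change between 1.08 and 1.67 in all 12. With 3 libraries the additive model has no residual degree of freedom, so each fit that leaves out a library leaves out the other term as well, and 1 arm then holds a lone library that is assumed to vary like the other arm. Leaving out the platform term alone gave an adjusted p of 0.0352. Leaving out a library together with that term gave 0.606 for PUCL maintenance, 0.244 for PUCL@CNT1 maintenance, 0.0366 for PUCL differentiation and 0.0864 for PUCL@CNT1 differentiation. DESeq2 gave an adjusted p of 0.0759. The astrocyte and oligodendrocyte-lineage lists, whose cells can also express Hes1, were also summed. The summed astrocyte markers were 629 and 632 CPM before the switch and 1220 and 712 CPM after it, with Slc1a2 at 0. S100b carried most of the rise on PUCL (104 to 609 CPM). S100b and Clu were higher after the switch on both platforms, and Gja1 was lower on both. Gfap, Aldoc and Glul were higher on PUCL and lower on PUCL@CNT1, and Aqp4 and Aldh1l1 had counts in 1 library each. The oligodendrocyte-lineage markers were 967 and 844 CPM, then 1584 and 1573 CPM, with all 10 detected in every library. Olig1, Olig2, Mbp and Cnp carried most of that sum. Mog and Cspg4 were lower after the switch on PUCL and higher on PUCL@CNT1, and Sox10 went the other way. The rest of this list was higher on both platforms. The part of these cells in the Hes1 and Jag1 values was not tested.

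Hes6, an atypical Hes factor that inhibits Hes1 and promotes neuronal differentiation, had 436 and 457 counts before the switch and 344 and 394 after it. The values in CPM were 66.1, 73.2, 53.2 and 59.3, so both differentiation libraries lay below both maintenance libraries. The log2 ratio was -0.31 on PUCL (-0.52 to -0.11) and -0.30 on PUCL@CNT1 (-0.50 to -0.11), nearly equal on the 2 platforms. The fitted log2 change of -0.31 had a standard error of 0.38 and did not pass the test (edgeR adjusted p = 0.924). The 12 neuronal markers, all in the tables, summed to 504 and 412 CPM before the switch and 349 and 257 CPM after it, with 9 to 11 detected in each library. Gap43, Elavl4 and Map2 carried most of that sum. Snap25, Stmn2, Rbfox3 and Syt1 also had fewer counts after the switch on both platforms, and Tubb3 and Elavl3 went opposite ways on the 2 platforms. The remaining markers, Tagln3, Dcx and Ncam1, had more counts after the switch on both platforms. Tagln3, a neuronal calponin-family gene, had 17 and 0 counts before the switch and 367 and 115 after it and rose (edgeR adjusted p = 5.93e-05). Dcx and Ncam1 did not pass the test (edgeR adjusted p = 0.953 and 0.59). The part of neurons in the Hes6 values was not tested. Hes5, with Hes1 the main Notch effector of neural stem cells, had 2 counts in the PUCL maintenance library and 0 in the other 3. Hey1, a related repressor, had 0 counts in every library. In the libraries at 0, these genes were not detectable at a depth that allows up to 0.480 CPM, which does not show that they were absent.

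**Figure D3:**
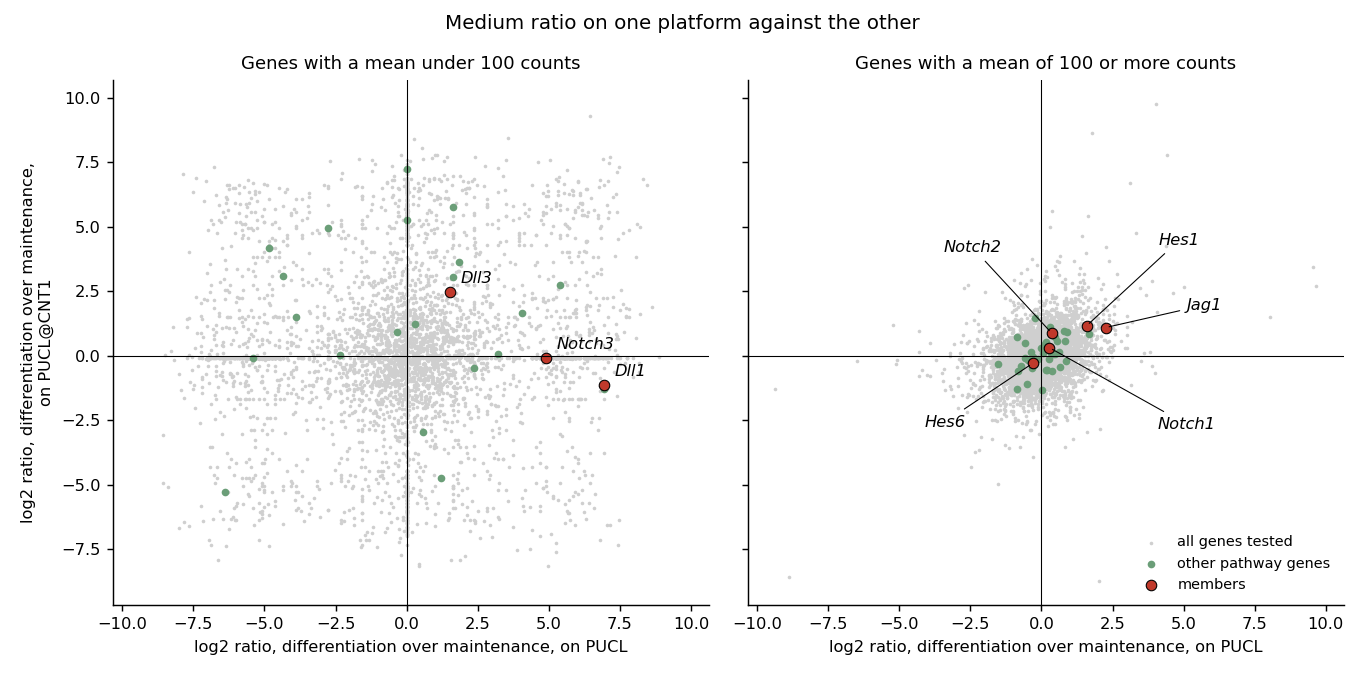
Log2 ratio of differentiation over maintenance medium on bare PUCL (x axis) against that on PUCL@CNT1 (y axis) for all genes tested (grey), the other pathway genes (green) and the Notch genes (red), with genes under a mean of 100 counts on the left and the rest on the right. Low-count genes scatter widely around Dll3, Notch3 and Dll1, while Hes1 and Jag1 lie in the upper right of a narrower cloud. A count of 0.5 was added to each library, so ratios with a library at 0 depend on it.

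The medium ratios of the 2 platforms were compared for each member, with an interval for counting error and no test, since no residual degree of freedom remained. Jag1 had the smaller ratio on PUCL@CNT1, by 1.17 on the log2 scale (-1.68 to -0.66 for PUCL@CNT1 minus PUCL). For Hes1 the difference was -0.43 (-0.71 to -0.16). For Dll1 it was -8.08 (-12.4 to -3.80), a value that depends on the count added to the library at 0. Notch1 and Hes6 had differences of 0.03 (-0.33 to 0.38) and 0.01 (-0.27 to 0.29). The interval for Dll3, from -0.21 to 2.15, includes 0.

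The second comparison was between PUCL@CNT1 and bare PUCL. In the additive model 0 of the 8 tested members were higher and 0 were lower, against 0.209% and 0.247% of all genes tested. None had an unadjusted p under 0.05, against 3.38% of all genes higher and 3.58% lower. Limma-voom called 0, against 0.475% of all genes higher and 0.352% lower, and DESeq2 gave no member an adjusted p for this term. Both had 0 members at an unadjusted p under 0.05, against 3.61% higher and 3.57% lower (limma-voom) and 3.05% and 2.97% (DESeq2). All 8 members had an adjusted p of 1 (edgeR). By size in maintenance medium, Dll1 was higher and Dll3 lower on PUCL@CNT1, against 12.1% higher and 13.9% lower among all genes. In differentiation medium 0 members were higher and 3 lower (Notch3, Dll1 and Dll3), against 15.2% and 15.6%. Notch3 met the filter through the PUCL differentiation library alone, so it could not be higher on PUCL@CNT1 there. All members past the size rule in either medium are low-count members. Among genes with a mean under 100 counts, 46.7% passed in maintenance and 51.9% in differentiation medium, against 11.7% and 16.1% of genes with a mean of 100 or more.

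**Figure D4:**
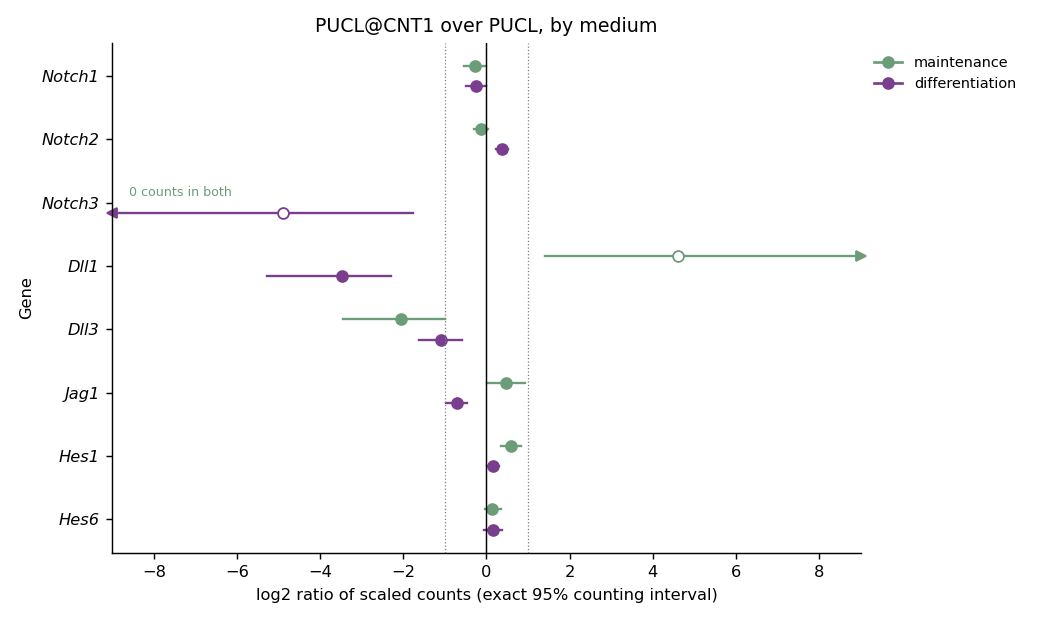
Log2 ratio of PUCL@CNT1 over bare PUCL for each Notch gene in maintenance and in differentiation medium, with exact 95% intervals of counting error; dotted lines mark 2-fold, and open points with arrows mark ratios with 1 library at 0, whose interval has no outer limit. Dll3 lies below 0 in both media, Hes1 lies above 0 in both, and Dll1 and Jag1 change side between media.

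Dll3 was the member that was lower on PUCL@CNT1 by size in both media, against 3.17% of all genes, and no member was higher in both, against 2.52%. It was 4.18-fold lower in maintenance medium and 2.13-fold lower in differentiation medium. In maintenance medium Dll1 on PUCL@CNT1 was 3.87-fold above bare PUCL (11 counts against 0), taking 3 counts for the library at 0. The exact interval of that ratio begins at 2.65-fold. In differentiation medium Dll1 was 11.1-fold lower on PUCL@CNT1 (5 against 59). By the same reckoning Notch3 was 4.8-fold lower in differentiation medium, where it had 14 counts on PUCL and 0 on PUCL@CNT1. The exact interval of its log2 ratio there ends at -1.77. Each of these values comes from libraries with few counts.

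The members with more counts differed less between platforms. For Hes1, PUCL@CNT1 over PUCL gave a log2 ratio of 0.59 (0.35 to 0.83) in maintenance medium and 0.15 (0.01 to 0.30) in differentiation medium. Jag1 gave 0.46 (0.01 to 0.93) and -0.71 (-0.97 to -0.46), so its order was turned between media. Notch1 gave -0.28 (-0.55 to -0.004) and -0.25 (-0.49 to -0.006), with slightly fewer counts on PUCL@CNT1 in each. Notch2 gave -0.12 (-0.30 to 0.05) and 0.38 (0.24 to 0.52). Hes6 gave 0.15 (-0.05 to 0.34) and 0.16 (-0.06 to 0.37), both intervals including 0.

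The wider pathway was read from lists of 88 further genes. Of these, 74 were in the tables, 58 were tested and 12 were at 0 in all 4 libraries. In edgeR 3 of the 58 rose with the medium, Aes and Fabp7 among them, and 0 fell, against 1.76% and 1.02% of all genes. At an unadjusted p of 0.05, 6 were higher and 2 lower, against 6.22% and 5.88%. DESeq2 called 1 higher and 0 lower of the 51 to which it gave an adjusted p, against 1.28% and 0.594% of its genes. Limma-voom called 3 higher and 1 lower, against 1.75% and 1.05%. For the platform term 0 were higher and 1 lower (Id1), against 0.209% and 0.247%, with 1 higher and 5 lower unadjusted, against 3.38% and 3.58%. DESeq2 called 0 of the 10 that got an adjusted p for that term, against 2.46% higher and 1.61% lower among its genes. Limma-voom called 1 in each direction, against 0.475% higher and 0.352% lower. By size, 7 of 58 were higher and 6 lower after the switch on PUCL, and 10 and 6 on PUCL@CNT1, near or below the shares of all genes given above (16.0% and 15.2%, then 16.5% and 14.5%). Their median medium ratios were 0.13 on PUCL and 0.10 on PUCL@CNT1 on the log2 scale, below those of the 8 members.

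Among the 6 other receptors and ligands, 4 were in the tables and 3 were tested. Notch4, a receptor known from endothelium, had 0 and 7 counts before the switch (PUCL, then PUCL@CNT1) and 1 and 66 after it. In maintenance medium Notch4 was 2.46-fold higher on the CNT1 platform, taking 3 counts for the library at 0, and the exact interval begins at 1.52-fold. Its log2 ratio was 5.43 (3.48 to 11.3) in differentiation medium. Notch4 met the filter of 10 counts through the PUCL@CNT1 differentiation library alone, so it could not be lower on that platform there. It did not pass the test for platform or for medium (edgeR adjusted p = 0.933 for medium). Summed endothelial markers were 28.1 and 29.8 CPM before the switch and 37.4 and 46.0 CPM after it, and the part of endothelial cells was not tested. Dll4, a Delta ligand best known from vessel sprouting, had 42 and 18 counts before the switch and 0 in both later libraries. With 3 counts taken for each library at 0, Dll4 was lower after the switch by 13.7-fold (PUCL) and 6.39-fold (PUCL@CNT1). The exact intervals of its log2 ratio, which include counting error in both libraries, end at -3.42 and -2.23. Dll4 did not pass the test (edgeR adjusted p = 0.699). Of the 7 other Hes and Hey factors, 5 were in the tables, 4 of them at 0 throughout, and none was tested.

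Of 9 enzymes that add sugars to the receptors 5 were tested, and none passed either term. Lfng, the Fringe enzyme that shifts receptors towards Delta ligands, had 52, 0, 2 and 4 counts, high in the PUCL maintenance library alone. Of 16 genes for ubiquitin ligases and endocytic traffic 12 were tested, and none passed. Numb, which antagonises Notch and is inherited unequally in some progenitor divisions, had 79 counts in the PUCL@CNT1 differentiation library and 0 in the other 3. It was at least 24.7-fold higher after the switch on PUCL@CNT1, with an exact interval that begins at 19.7-fold (edgeR adjusted p = 0.745).

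All 9 receptor proteases were tested and none passed. Their median medium ratio on the log2 scale was 0.60 on PUCL and 0.13 on PUCL@CNT1. Adam10, which makes the first cut after ligand binding, had 604, 521, 765 and 364 counts, with a log2 ratio of 0.37 on PUCL and -0.61 on PUCL@CNT1. Psen2, a catalytic subunit of gamma-secretase, had 20, 0, 71 and 6 counts. Psen2 was 6.31-fold lower on PUCL@CNT1 in maintenance medium, taking 3 counts for the library at 0. The exact interval of that log2 ratio ends at -2.23. In differentiation medium the log2 ratio was -3.50 (-5.10 to -2.41), but the platform term did not pass (edgeR adjusted p = 0.972).

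Of the 9 genes of the nuclear complex 5 were tested, and all 5 had a fitted medium change below 0, none past the threshold. Over all genes tested, 5276 of 10516 had a fitted change above 0. Snw1 and Crebbp were close to 0, at -0.13 and -0.18. The median log2 medium ratio of the 5 was -0.30 on PUCL and -0.39 on PUCL@CNT1. Rbpj, the DNA-binding core of the complex, had 296 and 227 counts before the switch and 176 and 184 after it. Both differentiation libraries were below both maintenance libraries, with a fitted log2 change of -0.56 (edgeR adjusted p = 0.852). Maml1, a Mastermind-like coactivator, had 51, 70, 75 and 9 counts, with 1 low library, PUCL@CNT1 in differentiation medium.

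All 14 corepressors in the tables, of 15 listed, were tested. Here 2 rose with the medium and none fell, at a median medium ratio of 0.01 on PUCL and 0.21 on PUCL@CNT1. Aes, a short Groucho-family protein, had 823 and 827 counts before the switch and 1508 and 1646 after it. Aes rose by a fitted log2 of 0.90 with a standard error of 0.26 (edgeR, Benjamini-Hochberg adjusted p = 0.0301), and the 2 platforms gave nearly the same ratio. The call held in 4 of 12 alternatives, and the adjusted p reached 0.698.

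Tle1, a Groucho-family corepressor recruited by Hes proteins, had 9, 36, 154 and 121 counts. Both differentiation libraries were higher, with log2 ratios of 4.05 and 1.65, but the fitted log2 change of 2.84 did not pass (edgeR adjusted p = 0.251).

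Of 8 other genes described as Notch targets all were tested. Here 1 rose with the medium and none fell, and 1 was lower on PUCL@CNT1 and none higher. Fabp7, the brain lipid-binding protein of radial glia, had 4037 and 3602 counts before the switch and 6921 and 7396 after it. Fabp7 rose by a fitted log2 of 0.88 with a standard error of 0.17 (edgeR, Benjamini-Hochberg adjusted p = 0.00051). The call held in 10 of 12 alternatives, and without the platform term and the PUCL or the PUCL@CNT1 maintenance library the adjusted p was 0.496 or 0.7. Nrarp, a direct target that feeds back on the receptor's intracellular domain, had 2172, 1515, 1776 and 1284 counts. Its log2 ratios of -0.26 and -0.33 with the medium were opposite in sign to those of Hes1 (edgeR adjusted p = 0.775).

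Id1, an inhibitor of basic helix-loop-helix factors that is also a BMP target, had 1849 and 708 counts before the switch and 1212 and 711 after it. Id1 was lower on PUCL@CNT1 by a fitted log2 of -1.06 with a standard error of 0.27 (edgeR, Benjamini-Hochberg adjusted p = 0.0435). The call held in 2 of 11 alternatives, with adjusted p between 0.00908 and 0.982, and it was lost without the medium term (0.901) as well as without that term and any 1 library.

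Of 9 proneural factors opposed by Hes proteins, 7 were in the tables, 5 of them at 0 throughout, and 2 were tested. Neither passed the test for medium or for platform.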

How the data were processed

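RNA was profiled with a Lexogen Quant-Seq kit, per the labels' protocols. Bowtie2, bedtools and rn6 are named in the submitters' processing notes, while versions, annotation and strand setting are not given in the sources used here. The deposited tables hold whole-number counts per gene symbol for each library, and rows of 1 symbol were summed. Counts were tested with edgeR 4.0.16 in R 4.3.3 (TMM scaling, additive medium and platform terms, at least 10 counts in at least 1 library, Benjamini-Hochberg over all 10516 genes). Standard errors of fitted changes were derived from the fitted log2 change and its F statistic. The moderation had 84.87 prior degrees of freedom against 1 residual, so each gene's error rests mostly on the trend over all genes. Ratios within pairs used a prior count of 0.5 and Clopper-Pearson intervals (scipy 1.17.1). Counts are of reads, so intervals and limits cover counting error only. Alternatives were total-count and RLE scaling, DESeq2 1.42.0, limma-voom (limma 3.58.1), other filters, ribosomal RNA entries left out, the other term left out, and 1 library left out together with the other term. Scripts were tested on simulated data. Other pathway genes were named where they passed an edgeR term, passed the size rule in the same direction in both pairs, or were in a fixed group, and some of them are not reported here. Members and lists were chosen with earlier results of these data known. Protein comparisons planned for Hes factors were not made, and levels were not compared between genes.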

Additional observations from a re-analysis of the deposited data

Results flagged for a closer look

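The medium ratio had opposite signs on the 2 platforms, with exact intervals that exclude no difference on each, for 3 of the pathway genes named here. For Adam10 the log2 ratio of differentiation over maintenance medium was 0.369 on PUCL and -0.607 on PUCL@CNT1. For Maml1 it was 0.581 on PUCL and -2.981 on PUCL@CNT1. For Ccnd1, named after its values were seen, it was -0.584 on PUCL and 0.494 on PUCL@CNT1. Of the 58 further pathway genes tested 11 had this pattern, close to the 18.7% of all genes tested, and of the 8 members 0 had it. The difference between platforms was not tested for any gene, since each combination is 1 library.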

How the results depend on the processing

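Of 292 genes past the threshold for medium, 185 were higher and 107 lower. DESeq2 called 170, a filter on a mean of 100 or more counts left 107, and the model without platform gave 176. Every fit with 1 library left out also leaves out the other term, since 3 libraries leave the additive model no residual degree of freedom. Such fits gave 25 (without PUCL@CNT1 maintenance) to 263, and without PUCL maintenance 35. Under total-count scaling the split was 139 higher and 122 lower, and without the PUCL@CNT1 differentiation library 119 and 144. For platform 48 genes passed (22 higher, 26 lower). This was 28 with total counts, 18 with RLE size factors (6 higher, 12 lower), 87 with limma-voom and 25 with no filter. It was 0 with a mean of 100 or more counts and 0 without the medium term (528 and 388 at an unadjusted p under 0.05), and 0 to 27 with 1 library left out. The calls by size in the 4 pairs stayed within 1.5 times the reported count under every alternative run. The named edgeR calls held less often than values in general. Hes1 held in 7 of 12 alternatives, Aes in 4 of 12, Fabp7 in 10 of 12 and Id1 in 2 of 11. Over the members and named genes 627 values were recomputed, many of which had passed no threshold to begin with. Of these, 590 kept direction and side of the threshold or moved little, 25 lost the threshold, 6 moved and 6 turned direction. All 6 are fitted medium changes with 1 library and the platform term left out, and the cause was not tested. Over these fits Adam10 ranged from -0.68 to 0.43, Psen2 from -0.73 to 8.27, Maml1 from -2.79 to 0.29, Id1 from -0.93 to 0.38 and Dll1 from -0.22 to 8.03. No paired analysis was possible because each combination is 1 library and the labels number no replicates across groups. Without replicates, the additive model rests on 1 residual degree of freedom, and depth limits Notch3, Dll1, Dll3, Hes5 and Hey1.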

Other observations

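Among further pathway genes, picked after their values were seen, Psenen, Hdac2, Ctbp2 and Nes had medium ratios of 1 sign on both platforms without passing the test for medium. Psenen, the small subunit that completes gamma-secretase, had 756 and 740 counts before the switch (PUCL, then PUCL@CNT1) and 1312 and 1173 after it. Its fitted log2 change was 0.70 with a standard error of 0.28 (edgeR, Benjamini-Hochberg adjusted p = 0.199). Among corepressors, Hdac2, a histone deacetylase, had 2223 and 2166 counts in maintenance and 1238 and 1531 in differentiation medium, a fitted log2 change of -0.70 with a standard error of 0.23 (edgeR adjusted p = 0.0804). Ctbp2, a corepressor that joins Hairless-type and Hes complexes, had 417 and 398 counts, then 227 and 170, a fitted log2 change of -1.08 with a standard error of 0.44 (edgeR adjusted p = 0.22). Nes, the intermediate filament of neural stem cells, had 2420 and 2363 counts, then 3461 and 3714, at log2 ratios of 0.55 and 0.56 (edgeR adjusted p = 0.133). By contrast Ccnd1, a cyclin of the G1 phase, had 18766, 16467, 12271 and 24679 counts, lower after the switch on PUCL and higher on PUCL@CNT1 (log2 ratios of -0.58 and 0.49, edgeR adjusted p = 0.981).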
